A study of Mus musculus with 8 samples.

Results

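The genes described are 10 chaperones and folding enzymes of the endoplasmic reticulum: Hspa5, Hyou1, Dnajb11, Sdf2l1, Manf, Hsp90b1, Calr, Pdia4, Pdia6 and Creld2. They were taken by symbol from a table of 18983 genes, and all 10 were found and passed the filter on low counts, which kept 15186 genes. The table holds 8 mRNA-seq libraries of the central amygdala, a forebrain nucleus of fear, feeding and autonomic control. The mice were of the 129SV strain, aged 7 months. In 4 libraries they had been on a high fat diet for 20 weeks, and in the other 4 on normal chow for as long. In each diet the libraries carry the title numbers 1, 2, 5 and 8, used here as replicate names (fat-fed library 1 is high fat replicate 1). Whether the 4 libraries of a diet came from 4 animals is not in the labels, so a p-value here covers the spread among libraries, which could be technical. They name no genetic change in either group.

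Proteins that are secreted or placed in membranes are folded in the endoplasmic reticulum. Hspa5, also called BiP, binds unfolded chains there and holds the sensors of the unfolded protein response (UPR) inactive. When unfolded protein accumulates, the released sensors activate the transcription factors Atf6, Xbp1 and Atf4, and Atf6 and Xbp1 act on ER stress response elements (ERSE) in the promoters of chaperone genes. The 10 genes were picked after their levels in these libraries had been seen, with the difference between the diets among the values in view. All values of that difference are therefore given as a description, and nothing is tested on them.

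Promoter sequence was not used in picking the genes. The ERSE is, however, already known as an element of chaperone promoters, so its share among these genes is a description only. RefSeq (GRCm38.p6, the same build as mm10) gave a promoter of 250 bases before to 50 bases after the annotated start for 8 of the 10 genes; those not matched are Hyou1 and Manf. The ERSE was searched on both strands as CCAAT and CCACG with 9 free bases between them, so its first letters are themselves a CCAAT box. It was found in 5 of the 8 promoters, those of Hspa5, Hsp90b1, Calr, Pdia6 and Creld2, and Hsp90b1 held 2 copies. Over all RefSeq promoters of the same length, 39 of 32851 (0.119%) held it, and 21 of the 12060 tested genes with a promoter (0.174%) did. The 4 promoters below belong to genes whose levels are described first, and capitals mark the ERSE. In Calr and in the second copy of Hsp90b1 the element lies on the opposite strand, so that it reads CGTGG first and ATTGG last.
Hspa5 (chr2:34771840-34772139, plus strand): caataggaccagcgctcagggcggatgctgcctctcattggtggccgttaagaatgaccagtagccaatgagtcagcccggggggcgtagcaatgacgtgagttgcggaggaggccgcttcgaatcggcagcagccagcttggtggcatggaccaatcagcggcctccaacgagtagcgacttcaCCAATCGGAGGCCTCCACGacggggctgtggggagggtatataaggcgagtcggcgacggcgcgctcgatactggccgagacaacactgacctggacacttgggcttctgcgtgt
Hsp90b1 (chr10:86705395-86705694, minus strand): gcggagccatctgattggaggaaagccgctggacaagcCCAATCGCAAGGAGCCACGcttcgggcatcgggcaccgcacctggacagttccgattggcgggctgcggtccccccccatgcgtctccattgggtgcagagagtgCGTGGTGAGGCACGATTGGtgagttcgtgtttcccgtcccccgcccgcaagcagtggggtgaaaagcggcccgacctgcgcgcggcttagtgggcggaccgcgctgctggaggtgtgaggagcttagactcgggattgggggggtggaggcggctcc
Calr (chr8:84846882-84847181, minus strand): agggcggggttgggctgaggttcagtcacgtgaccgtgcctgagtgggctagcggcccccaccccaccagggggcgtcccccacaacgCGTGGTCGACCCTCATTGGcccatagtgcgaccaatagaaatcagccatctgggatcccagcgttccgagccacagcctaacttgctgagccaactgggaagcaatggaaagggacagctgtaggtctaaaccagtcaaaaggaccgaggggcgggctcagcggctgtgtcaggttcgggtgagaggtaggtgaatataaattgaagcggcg
Pdia6 (chr12:17266339-17266638, plus strand): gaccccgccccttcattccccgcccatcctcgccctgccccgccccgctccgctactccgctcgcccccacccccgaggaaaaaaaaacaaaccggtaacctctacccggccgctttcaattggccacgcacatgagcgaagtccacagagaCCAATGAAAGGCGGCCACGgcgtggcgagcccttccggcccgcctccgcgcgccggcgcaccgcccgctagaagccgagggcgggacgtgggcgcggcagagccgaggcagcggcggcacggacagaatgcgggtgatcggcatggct

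Set side by side in the orientation of the motif, with its fixed letters in capitals, the elements share their ends and differ in the 9 bases between them.
Hspa5, 65 bases before the start: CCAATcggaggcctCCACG
Hsp90b1, 212 bases before the start: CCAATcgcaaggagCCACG
Hsp90b1, 107 bases before the start: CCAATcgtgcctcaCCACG
Calr, 162 bases before the start: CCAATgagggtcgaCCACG
Pdia6, 98 bases before the start: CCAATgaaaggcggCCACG
Creld2, 126 bases before the start: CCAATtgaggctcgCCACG
Dnajb11, ERSE-II, 8 bases into the transcript: ATTGGcCCACG

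The last sequence is a match to ERSE-II, a shorter related element searched as ATTGG and CCACG with 1 free base between them, which 12 of 32851 promoters (0.0365%) held. It overlaps a CCAAT box on the opposite strand. Every one of the 8 promoters held at least 1 CCAAT box, which 37.4% of all promoters held. TGACGTGG, the core of the UPR element bound by Xbp1, matched in 0 of the 8 and in 0.676% of all promoters. TGATGNAA, from the element that Atf4 binds with C/EBP partners, matched in 0 of the 8 and in 3.97% of all. A match is a match of letters only, and no match concerns this window only.

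**Figure D1:**
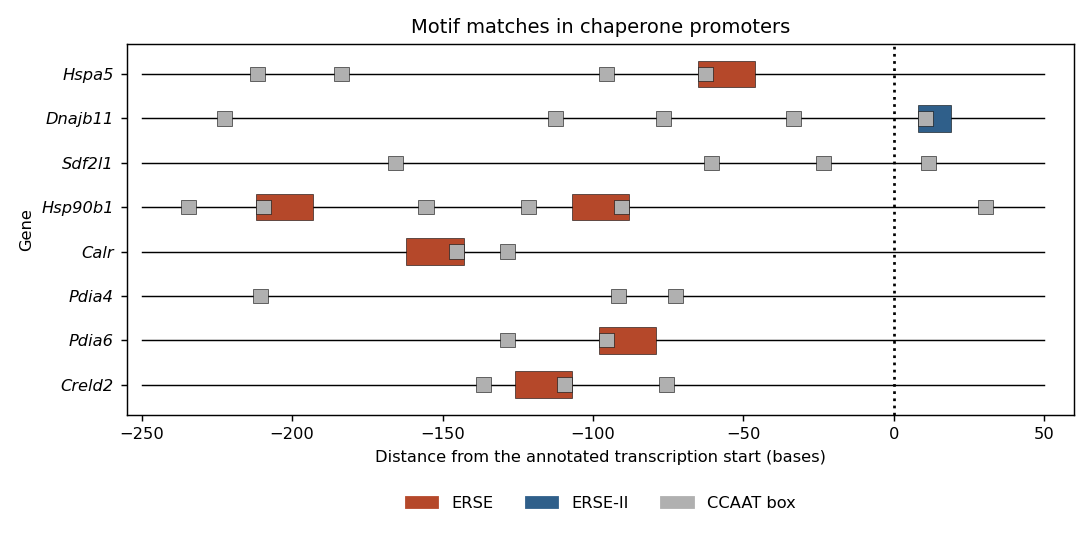
Motif matches in the promoters of 8 chaperone genes, by distance from the annotated transcription start in bases. Orange boxes are ERSE matches, the blue box is the ERSE-II match of Dnajb11 and grey boxes are CCAAT boxes; the ERSE matches of the 5 genes lie between 65 and 212 bases before the start, and Sdf2l1 and Pdia4 hold CCAAT boxes without either element.

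Per transcript length, the 10 genes span a wide range. In the authors' deposited table the mean TPM of Calr was 568 on the high fat diet and 424 on chow. It was 346 and 273 for Hsp90b1 and 285 and 196 for Hspa5 on the high fat diet and chow. Manf followed at 148 and 122 TPM and Pdia6 at 145 and 100 TPM, in the same order of diets. Hyou1, Dnajb11 and Pdia4 were at 68.2, 61.2 and 45.3 TPM on the high fat diet, against 54.3, 51.1 and 34.7 TPM on chow. Creld2 and Sdf2l1 were lowest, at 28.8 and 23.6 TPM on the high fat diet and 24.0 and 17.1 TPM on chow. The rank of all 10 genes was the same in both diets. The spread of TPM between libraries was not analysed here, so neighbours as close as Manf and Pdia6 cannot be separated.

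The level of each gene in each library is given from here on in CPM, the counts of a gene per 1e6 counts of the library, with library totals scaled by TMM factors. Hspa5 was at 325, 334, 225 and 227 CPM in the fat-fed libraries 1, 2, 5 and 8, and at 188, 207, 189 and 201 CPM in chow replicates 1, 2, 5 and 8. All 4 high fat libraries lay above all 4 chow libraries. Within the high fat diet, replicates 1 and 2 stood about 100 CPM above replicates 5 and 8, a gap wider than the whole chow range. Its log2 fold change, high fat diet over chow, was 0.50 ± 0.16 (SE), or 1.41-fold.

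The partners of Hspa5 had smaller log2 folds by edgeR on all 8 libraries, but for Sdf2l1 this order was not stable. Without chow replicate 1 the log2 fold was 0.63 for Sdf2l1 and 0.47 for Hspa5. With limma-voom and quality weights it was 0.58 and 0.52. Hyou1, a large relative of the HSP70 family that exchanges the nucleotide of Hspa5, was at 144, 120, 107 and 98.7 CPM in the fat-fed libraries 1, 2, 5 and 8 and at 109, 100, 83.4 and 96.4 CPM in the chow replicates of those numbers. Dnajb11, a J-domain co-chaperone that hands unfolded chains to Hspa5, was at 54.0, 52.8, 42.6 and 38.1 CPM on the high fat diet and at 43.8, 40.4, 39.1 and 38.9 CPM on chow. In both genes only replicates 1 and 2 of the high fat diet lay above every chow library. The lowest value of Dnajb11 was that of high fat replicate 8. Sdf2l1, a partner of J-domain proteins such as Dnajb11, was at 11.98, 11.01, 7.62 and 8.45 CPM on the high fat diet and at 11.1, 6.07, 6.29 and 6.52 CPM on chow. Chow replicate 1 thus sat among the highest high fat libraries, apart from the other 3 chow libraries. Manf, a small secreted protein that binds Hspa5 and is known as a neurotrophic factor, was at 51.5, 55.5, 39.8 and 42.5 CPM on the high fat diet and at 47.0, 36.1, 38.2 and 41.7 CPM on chow. The log2 folds of Hyou1, Dnajb11, Sdf2l1 and Manf were 0.27 ± 0.15, 0.21 ± 0.14, 0.38 ± 0.25 and 0.22 ± 0.15 (SE).

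Hsp90b1, the HSP90 of the endoplasmic reticulum (also GRP94), was at 364, 396, 351 and 349 CPM in the fat-fed libraries 1, 2, 5 and 8, and at 190, 334, 322 and 328 CPM in chow replicates 1, 2, 5 and 8. The groups did not overlap. However, 3 of the chow libraries lay close below the high fat ones, and chow replicate 1 stood far below all others. The log2 fold was 0.32 ± 0.19 (SE), and 0.15 without chow replicate 1. Calr, calreticulin, a lectin chaperone that also buffers calcium, was at 493, 471, 384 and 331 CPM on the high fat diet and at 439, 308, 306 and 266 CPM on chow. In Calr the same chow replicate 1 was the highest chow library and lay above high fat replicates 5 and 8. The log2 fold of Calr was 0.35 ± 0.20 (SE), and 0.51 without that library.

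Of the enzymes that form and shuffle disulfide bonds, Pdia6 was at 140, 128, 104 and 102 CPM in the fat-fed libraries 1, 2, 5 and 8 and at 96.8, 95.4, 68.6 and 80.3 CPM in the chow replicates of those numbers. The groups did not overlap, and the log2 fold was 0.47 ± 0.16 (SE), or 1.39-fold. Pdia4 was at 55.1, 46.7, 34.6 and 35.8 CPM on the high fat diet and at 43.2, 33.6, 31.1 and 29.9 CPM on chow, with a log2 fold of 0.32 ± 0.19. Creld2, an EGF-domain protein that is induced when folding is disturbed, was at 15.8, 18.05, 12.5 and 12.6 CPM on the high fat diet and at 13.7, 13.4, 10.7 and 13.2 CPM on chow. Its log2 fold was 0.21 ± 0.17. For Pdia4 and Creld2, high fat replicates 5 and 8 lay among the chow values.

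**Figure D2:**
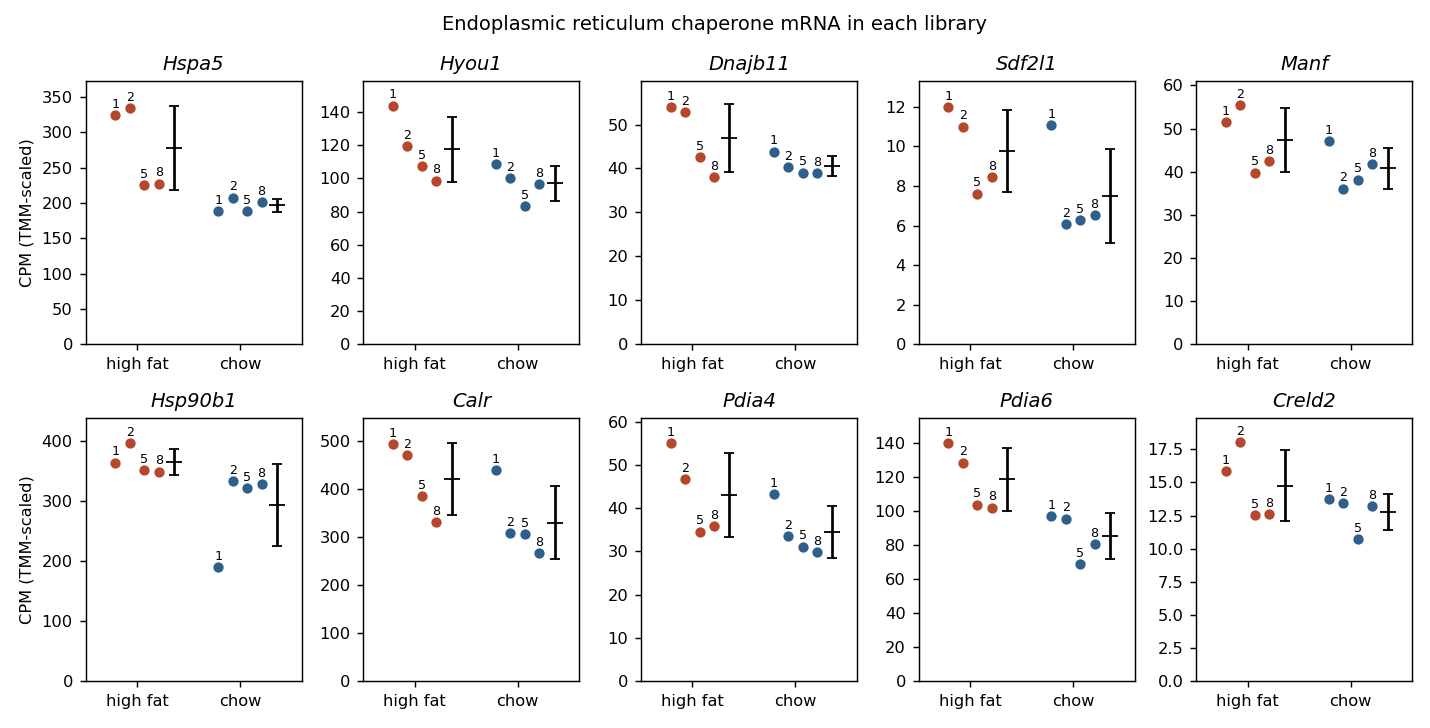
CPM of each of the 10 chaperone genes in every library, high fat diet in orange and chow in blue, with the title number beside each point; bars show the mean and SD of 4 libraries. High fat replicates 1 and 2 are the 2 highest libraries in 9 of the 10 genes, and chow replicate 1 is far below the rest for Hsp90b1 alone among these genes, at 190 CPM.

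The folds of all 10 genes were positive, from 0.21 to 0.50 with a median of 0.32 on the log2 scale, where 48.2% of all tested genes had a positive fold and the median of all was -0.012. High fat libraries did not overlap chow from above in 3 of 10 genes (Hspa5, Pdia6 and Hsp90b1), beside 0.645% of all tested genes, and from below in 0 of 10, beside 0.718%. Since these values chose the genes, nothing is read from these counts. By edgeR's quasi-likelihood test with Benjamini-Hochberg adjustment over all genes, 0% of the 15186 genes passed an adjusted p under 0.05, and 4.27% had an unadjusted p under 0.05. DESeq2, limma-voom and limma-voom with quality weights also called 0 genes.

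The difference between the diets was widest in high fat replicates 1 and 2. The summed level of the 10 genes was 1654, 1633, 1309 and 1246 CPM in the fat-fed libraries 1, 2, 5 and 8, and 1182, 1174, 1094 and 1103 CPM in chow replicates 1, 2, 5 and 8. The mean was 1460 ± 213 CPM on the high fat diet and 1138 ± 46.3 CPM on chow (SD, n = 4 each). The sums of the diets did not overlap, but this rested on the low Hsp90b1 of chow replicate 1. Without Hsp90b1, a sum added after seeing the data, they were 1290, 1237, 958 and 897 CPM on the high fat diet and 992, 840, 772 and 774 CPM on chow, so that chow replicate 1 lay above high fat replicates 5 and 8. With every gene weighted equally, the mean deviation in log2 CPM was 0.38, 0.35, -0.031 and -0.053 on the high fat diet and -0.0080, -0.15, -0.28 and -0.20 on chow, which overlapped in the same way. In 7 of the 10 genes high fat replicates 5 and 8 were both at or below the highest chow library. Leaving out high fat replicate 1 brought the log2 folds of Pdia4, Dnajb11 and Hyou1 to 0.18, 0.13 and 0.16. Leaving out high fat replicate 2 brought those of Manf and Creld2 to 0.13 and 0.10. Without chow replicate 1, Sdf2l1 was at 0.63.

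**Figure D3:**
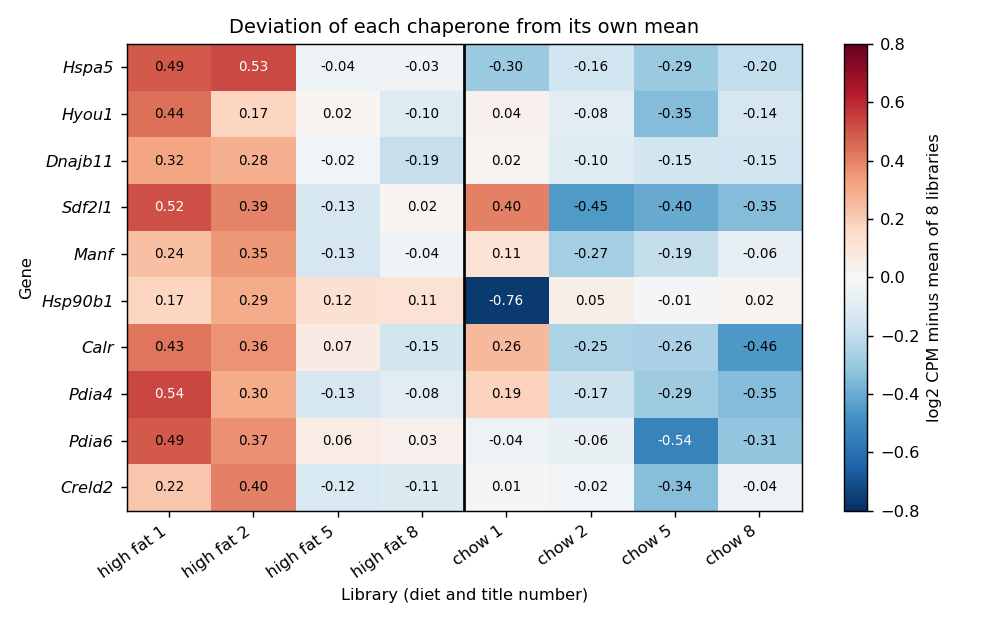
Log2 CPM of each chaperone minus its own mean over the 8 libraries, with genes as rows and libraries as columns (high fat diet left of the line, chow right of it). The columns of high fat replicates 1 and 2 are above the mean for all 10 genes, that of chow replicate 5 is below it for all 10, and Hsp90b1 in chow replicate 1 is the lowest cell at -0.76.

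By Pearson correlation, the chaperone genes other than Hsp90b1 varied together from library to library. The genes were picked after their levels in these libraries had been seen, so their correlations are a description only. Pairs of other genes are not set beside them. By Spearman correlation with the mean of the other chaperones, Hspa5 was lowest at 0.60 and Hsp90b1 next at 0.62. Over the 8 libraries the 45 pairs of genes had Pearson correlations of log2 CPM from -0.16 to 0.94 with a median of 0.82, and Spearman correlations from 0.36 to 0.98 with a median of 0.71. All these values share the same libraries and scaling factors, and n is 8 for each. Once each diet's mean was taken away, the median Pearson correlation was 0.73, while the 9 pairs with Hsp90b1 ran from -0.69 to 0.30 with a median of -0.29. Without that step the 9 pairs had a median of 0.16, and those without it, set apart after their values were seen, ran from 0.66 to 0.94. Without chow replicate 1 the pairs with Hsp90b1 ran from 0.76 to 0.93, and all 45 pairs from 0.74 to 0.96. In chow replicate 1 Hsp90b1 and Hspa5 were at their lowest of the 8 libraries, at -0.76 and -0.30 from their own means on the log2 scale (Hspa5 by little, with chow replicate 5 at -0.29), while for the other 8 genes it was the highest chow library. The pair of Hsp90b1 and Hspa5 had a Pearson correlation of 0.60 and a Spearman correlation of 0.98. There the ratio of Hsp90b1 to Hspa5 in CPM was 1.01, against 1.61 to 1.71 in the other chow libraries, and 1.12, 1.19, 1.56 and 1.54 in high fat replicates 1, 2, 5 and 8. The ratio of Calr to Hspa5 was 2.34 in chow replicate 1, against 1.32 to 1.62 in the other chow libraries and 1.41 to 1.71 on the high fat diet.

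Among 10835 other genes with a mean of at least 10 CPM, the 10 most like the mean of the chaperones over the 8 libraries were Fam107a, Pcyox1l, Pdia3, Ube2a, Klhl2, Mrpl19, Exoc8, Rerg, Ints11 and Cnot3, with Pearson correlations from 0.96 down to 0.92. Of these, 1 is in the lists of pathway genes: Pdia3, the oxidoreductase that works with calreticulin, at a Pearson correlation of 0.93 and a Spearman correlation of 0.88. Pdia3 was at 232, 247, 200 and 196 CPM in the fat-fed libraries 1, 2, 5 and 8 and at 204, 178, 191 and 181 CPM in chow replicates 1, 2, 5 and 8. Fam107a, an actin-associated protein that responds to stress, was at 481, 426, 337 and 356 CPM on the high fat diet and at 375, 329, 322 and 312 CPM on chow. In both, high fat replicates 1 and 2 were the highest, and chow replicate 1 the highest of the chow libraries. A Pearson correlation above 0.8 was reached by 180 of the 10835 genes (1.66%). Of the 175 pathway genes with a value, 11 (6.29%) reached it. They were 3 of 19 cytosolic and mitochondrial chaperones, 2 of 13 calcium genes, 2 of 21 export genes and 2 of 24 degradation genes. The others were 1 of 14 UPR sensors and factors and 1 of 18 disulfide enzymes. With so few genes, no difference between the lists is read from these counts. Of the other ER chaperones 0 of 23 reached it, and their median correlation was -0.023. None of 28 translocation genes and none of 15 genes listed for the integrated stress response reached it. The other ER chaperones are those left after the 10 were picked with their levels in view, so their contrast with the 10 is a description only.

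The rest of the pathway was set out in 9 lists chosen by function, with 194 tested genes. In these lists 0 genes passed in either direction by edgeR. At an unadjusted p under 0.05 there were 3 higher and 1 lower (2.06% together, where 1.65% of all genes were higher and 2.63% lower), and DESeq2 and limma-voom also called 0. The medians of the 9 lists lay between -0.035 and 0.098 on the log2 scale, beside 0.32 for the 10 chaperones and -0.012 for all genes.

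The sensors and transcription factors of the UPR had 8 of 16 folds positive and a median of -0.035. Xbp1, whose spliced mRNA encodes the active factor, was at 119, 107, 88.0 and 85.6 CPM in the fat-fed libraries 1, 2, 5 and 8 and at 108, 81.6, 76.5 and 76.6 CPM in chow replicates 1, 2, 5 and 8. It followed the chaperones at a Pearson correlation of 0.90 over the 8 libraries, rank 14 of the 10835 genes. Its log2 fold was 0.22 ± 0.16 (SE; adjusted p = 0.754 by edgeR). Gene counts hold both spliced and unspliced Xbp1, which were not told apart here. Atf4, the factor of the PERK arm, was at 125 ± 2.43 CPM on the high fat diet and 125 ± 16.7 CPM on chow (SD, n = 4 each). Nfyc, a subunit of the factor that binds the CCAAT box, was at 47.5 ± 1.24 and 54.9 ± 12.6 CPM, and Creb3 at 36.4 ± 2.16 and 40.4 ± 7.54 CPM, high fat diet before chow.

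Genes listed for the integrated stress response, the Atf4 branch, had 11 of 22 folds positive and a median of -0.0026. The list is not of Atf4 targets alone, since it holds Eif2s1 and Ddr2, at log2 folds of 0.20 and 0.70. Asns, asparagine synthetase, had a log2 fold of 0.032 ± 0.11 and Slc3a2, an amino acid transporter subunit, 0.095 ± 0.14. Psat1 and Phgdh, enzymes of serine synthesis, had -0.50 ± 0.24 and -0.46 ± 0.24 (adjusted p = 0.753 by edgeR each). Psat1 passed without chow replicate 2 (log2 fold -0.71, adjusted p = 0.0491 by edgeR), where 116 of the tested genes (0.758%) passed.

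The other chaperones of the compartment had 18 of 28 folds positive and a median of 0.075. Canx, calnexin, the membrane-bound partner of calreticulin, was at 400, 347, 356 and 360 CPM in the fat-fed libraries 1, 2, 5 and 8 and at 272, 322, 361 and 358 CPM in chow replicates 1, 2, 5 and 8. Its lowest library was chow replicate 1, the one in which Hsp90b1 was low. Ppib, Rcn2 and Fkbp2, a cyclophilin, a calcium-binding protein and a prolyl isomerase, had log2 folds of 0.043 ± 0.11, -0.086 ± 0.12 and -0.26 ± 0.19. The other disulfide enzymes had 9 of 19 positive and a median of -0.021. Pdia3 had 0.22 ± 0.12, while Tmx2, Selenof and Selenom had -0.021 ± 0.11, -0.12 ± 0.13 and -0.52 ± 0.24. Each of these genes was at an adjusted p of 0.753 or above by edgeR.

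The lists of degradation, import, export and calcium genes had medians near that of all genes. ER-associated degradation had 10 of 25 folds positive and a median of -0.024, with Vcp, the segregase that pulls proteins from the membrane, at 0.038 ± 0.11, Selenok at -0.077 ± 0.12 and Rnf5 at -0.28 ± 0.22. Translocation into the compartment had 16 of 28 positive and a median of 0.015, with Srp14, Spcs1, Sec11c and Dad1 at 0.018 ± 0.13, -0.054 ± 0.14, -0.16 ± 0.18 and -0.25 ± 0.24. Export and retrieval had 11 of 22 positive and a median of 0.0055. There the cargo receptors Tmed2, Tmed10 and Tmed9 were at -0.037 ± 0.12, -0.083 ± 0.13 and 0.20 ± 0.14. Kdelr1, a receptor that returns escaped chaperones, was at -0.091 ± 0.18. Calcium genes had 6 of 14 positive and a median of -0.011. Atp2a2, the calcium pump, was at 0.15 ± 0.17, Itpr1, a release channel, at 0.083 ± 0.21 and Stim1 at -0.19 ± 0.15. The smallest adjusted p of any gene was 0.753 by edgeR.

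Chaperones of the cytosol and mitochondria, another compartment, had 15 of 20 folds positive and a median of 0.098. Hspa8, the constitutive HSP70, was at 2250 ± 266 CPM on the high fat diet and 2029 ± 207 CPM on chow (SD, n = 4 each). Hsp90ab1 and Hsp90aa1, the cytosolic HSP90 proteins, had log2 folds of 0.17 ± 0.17 and 0.28 ± 0.22, and Cryab, a small heat shock protein, -0.88 ± 0.47. Hsph1, named for an unadjusted p of 0.0329 (adjusted p = 0.753 by edgeR), was at 354, 328, 240 and 224 CPM in the fat-fed libraries 1, 2, 5 and 8 and at 189, 237, 221 and 195 CPM in chow replicates 1, 2, 5 and 8. High fat replicates 1 and 2 were thus highest for this gene too.

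**Figure D4:**
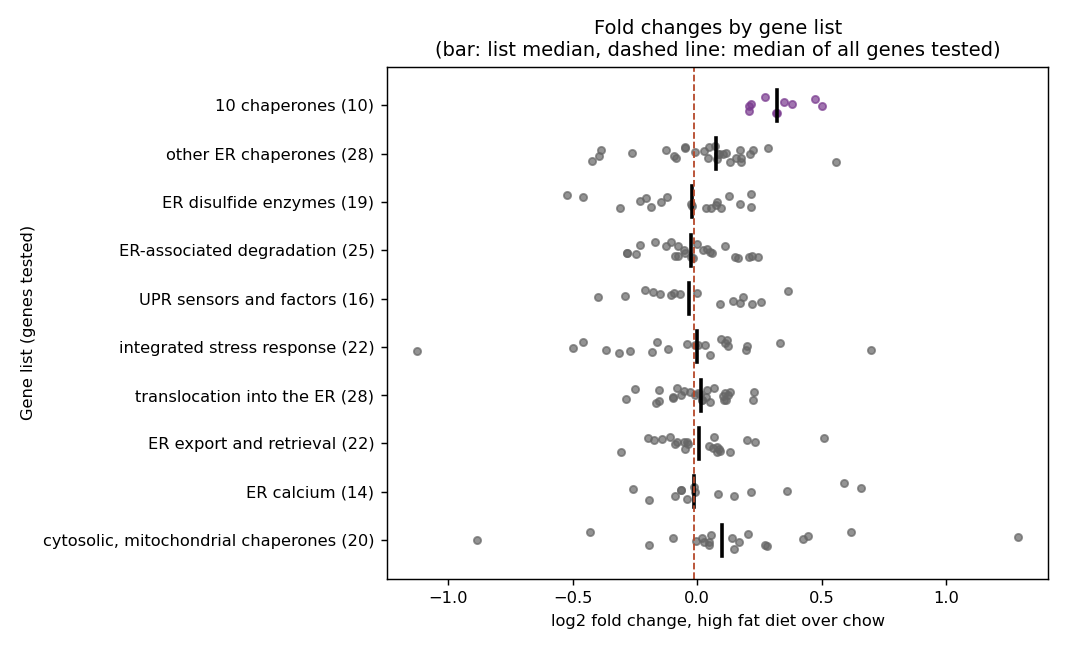
Log2 fold change, high fat diet over chow, of every tested gene in the 10 chaperones and in 9 lists of related genes; black bars are list medians and the dashed line is the median of all tested genes. The chaperones lie between 0.21 and 0.50, having been chosen with this contrast in view, and the medians of the other lists lie between -0.035 and 0.098.

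Marker levels of other cell types differed between the libraries. In bulk tissue, fewer cells of a type and less RNA per cell cannot be told apart. The 12 markers of central amygdala neurons summed to 450, 796, 543 and 679 CPM in the fat-fed libraries 1, 2, 5 and 8, and to 1405, 495, 1135 and 1066 CPM in chow replicates 1, 2, 5 and 8. High fat libraries were thus below every chow library but replicate 2 in this sum, which not every member followed. Sst, a large part of it, was at 327, 381, 327 and 298 CPM on the high fat diet. On chow Sst was at 463, 280, 235 and 223 CPM, so only chow replicate 1 lay above the high fat libraries. Prkcd reached 273 CPM in chow replicate 5 and was at most 58.4 CPM elsewhere. The 12 markers of striatal spiny neurons summed to 369, 1450, 690 and 1006 CPM on the high fat diet and to 3963, 540, 1808 and 2614 CPM on chow. As with the central amygdala sums, only chow replicate 2 lay within the high fat range. All members of the 15 marker lists were in the table and 0 were at 0 in every library. The 12 markers of pallial excitatory neurons, led by Slc17a7, summed to 2990, 2167, 1945 and 1145 CPM in the fat-fed libraries 1, 2, 5 and 8, and to 595, 2216, 499 and 334 CPM in chow replicates 1, 2, 5 and 8. The order among the high fat libraries was that of their chaperone sums. Chow replicate 2 had a sum close to that of high fat replicate 2, and its chaperone sum of 1174 CPM lay within the range of the other chow libraries. The 10 thalamic and habenular markers summed to 169, 198, 272 and 356 CPM on the high fat diet and to 252, 255, 951 and 522 CPM on chow, the reverse order of the chaperones among the high fat libraries. Over the 8 libraries the Pearson correlation of the log2 sum with the chaperone mean was 0.69 for the excitatory markers and -0.82 for the thalamic ones. These are the highest and the lowest value of the 15 lists, so they are extremes and a description only. The next were 0.58 for fibroblast markers and -0.42 for blood markers. Prkcd is counted in both the thalamic and the central amygdala sums, and Scn4b in both the striatal and the central amygdala sums. These sums are therefore not independent. The 12 oligodendrocyte markers ran from 4382 to 9445 CPM on the high fat diet and from 3365 to 20511 CPM on chow. The 10 markers of choroid plexus, a secretory epithelium, ran from 427 to 4232 CPM and from 630 to 8706 CPM, with the maximum in chow replicate 1. That library was also the highest for ependymal markers, at 325 CPM against 17.2 to 54.1 CPM on the high fat diet. Chow replicates 2, 5 and 8 were at 30.7, 36.3 and 46.8 CPM. Blood markers were at 2298 CPM in it, against 177 to 706 CPM on the high fat diet. For them chow replicates 2, 5 and 8 were at 314, 730 and 482 CPM. The 8 markers of plasma cells, which are rich in these chaperones, summed to 4.65 to 6.66 CPM on the high fat diet and 4.64 to 19.5 CPM on chow, highest in chow replicate 2. The part of the mix of these cell types in the chaperone values was not tested.

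**Figure D5:**
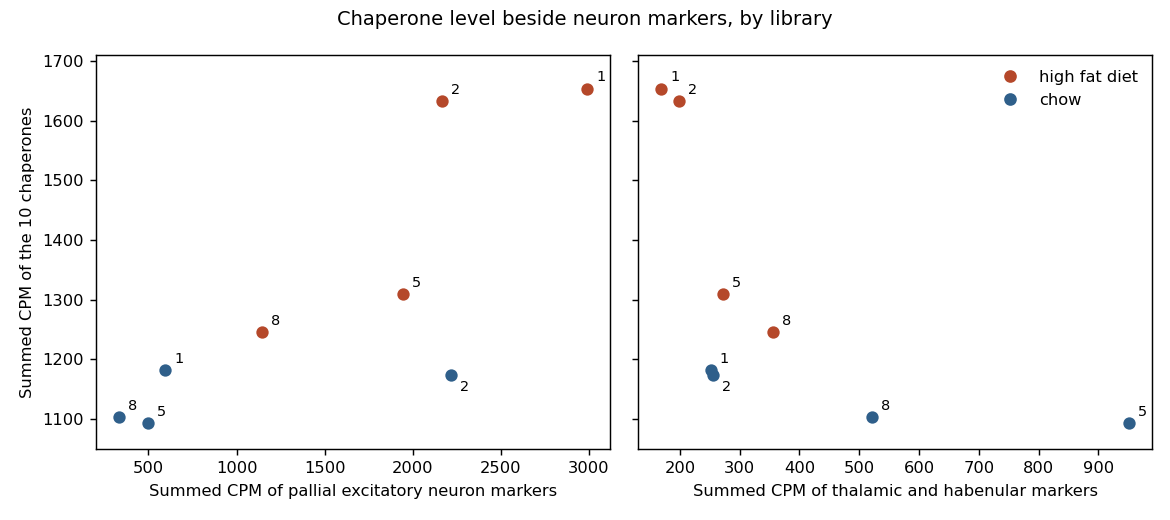
Summed CPM of the 10 chaperones against the summed CPM of 12 pallial excitatory markers (left) and of 10 thalamic and habenular markers (right), 1 point per library with its title number, high fat diet in orange and chow in blue; axes do not start at 0. Chow replicate 2 lies at 2216 CPM of excitatory markers with 1174 CPM of chaperones, and high fat replicates 1 and 2 lie highest in chaperones at 1654 and 1633 CPM. The marker lists shown had the highest and the lowest correlation with the chaperone mean among 15 lists.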

How the data were processed

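Poly(A) RNA was sequenced as single-end reads on a BGISEQ-500 instrument, per the labels' protocols. The authors deposited estimated (expected) counts per gene and library, and, for each diet, the averaged expected count, FPKM and TPM, per the file headers. The submitters' processing notes name Bowtie2 2.2.5, RSEM 1.2.8 and mm10, with no roles. Neither annotation nor strandedness is given in the sources used here, and overlapping genes may therefore share reads. In GENCODE M21, Manf overlaps Dcaf1 and Rbm15b, Pdia6 overlaps Atp6v1c2 (at most 4.37 CPM), and Pdia4, Hsp90b1 and Dnajb11 overlap non-coding genes.

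Counts were rounded to whole numbers. Library totals were 17451111 to 19562368. Genes were kept by filterByExpr, scaled by TMM and compared with edgeR 4.0.16 (R 4.3.3; quasi-likelihood test, two-sided, all 8 libraries, no covariate, Benjamini-Hochberg). The SE was obtained by dividing the log2 fold by the square root of F. Log2 CPM has a prior count of 2. The chaperone mean over libraries is the mean of log2 CPM after centring each gene. The procedure was tested on simulated data. Alternatives used DESeq2 1.42.0, limma 3.58.1, other scalings, filters, the title number as a block, and 1 library left out at a time.

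The genes and lists were chosen with earlier results of these data known. Named were all 10 chaperones, the 4 genes of highest deposited TPM in each pathway list (2 of them are not reported here), and the 10 genes most correlated with the chaperone mean. Xbp1's correlation and rank, and Hsph1, Psat1's passing fit and single library patterns, were chosen after their values were seen.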

Additional observations from a re-analysis of the deposited data

Results flagged for a closer look

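In groups of 4 libraries, 28 sets of values of the chaperones were looked at for a library far from the other 3, which chance gives in about 1 in 20. Hsp90b1 was at 190 CPM in chow replicate 1, with the other chow libraries at 322 to 334 CPM. Sdf2l1 was at 11.1 CPM in the same library, with the others at 6.07 to 6.52 CPM. The ratio of Hsp90b1 to Hspa5 was 1.01 there, with the others at 1.61 to 1.71. Creld2 was at 10.7 CPM in chow replicate 5, with the others at 13.2 to 13.7 CPM.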

How the results depend on the processing

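The count of genes called was 0 under every scaling, filter and tool tried, under an adjusted p of 0.1 in edgeR and with the title number as a replicate block. The smallest adjusted p was 0.753 in edgeR, 0.0722 in DESeq2 and 0.0675 in limma-voom with quality weights. DESeq2 and limma-voom with quality weights would thus have called genes at 0.1. With 1 library left out it ran from 0 to 116, and 116 came without chow replicate 2. The integrated stress response list had 0 to 1 called genes in those fits, and the other lists 0. An unadjusted p under 0.05 was reached by 649 genes by edgeR on all libraries and by 4492 genes by limma-voom with quality weights. By edgeR it was reached by 2972 genes without chow replicate 2 and by 131 genes without high fat diet replicate 1. The median log2 fold of the 10 chaperones was 0.32; it ran from 0.22 (without high fat diet replicate 1) to 0.39 (without chow replicate 1) with 1 library left out, and from 0.28 (upper-quartile factors) to 0.39 (limma-voom with quality weights) elsewhere. It was 0.33 with the replicate block. Deviations of same-numbered libraries correlated at 0.013, -0.043, 0.035 and 0.39 for numbers 1, 2, 5 and 8. Only for number 8 was the same-numbered library of the other diet the best match in both directions. These correlations cannot show whether same-numbered libraries share more than the number. All 10 folds stayed positive in every fit. The medians of 3 pathway lists, added after seeing the data, moved by more than the spread between libraries: disulfide enzymes to 0.056 without high fat diet replicate 1, integrated stress response to 0.12 without chow replicate 1, and calcium genes to 0.091 without chow replicate 8. With 4 libraries a diet, the SE of the chaperone folds ran from 0.14 to 0.25; the cause of the lost or gained calls was not tested.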

Other observations

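Hsp90aa1, the stress-inducible cytosolic HSP90, was at 1237, 1411, 1177 and 1309 CPM in the fat-fed libraries 1, 2, 5 and 8, and at 623, 1272, 1200 and 1131 CPM in chow replicates 1, 2, 5 and 8. Its low value in chow replicate 1 stood in the same library as the low values of Hsp90b1 and Canx. Stim2, a calcium sensor of the endoplasmic reticulum, was at 133, 98.6, 71.7 and 70.0 CPM in the fat-fed libraries 1, 2, 5 and 8 and at 51.6, 83.6, 47.9 and 53.1 CPM in the chow replicates of those numbers (unadjusted p = 0.0303, adjusted p = 0.753 by edgeR). Hspa1b, an inducible cytosolic HSP70 whose reads can be shared with its near copy Hspa1a, was at 27.3, 26.6, 14.7 and 12.7 CPM on the high fat diet and at 6.52, 16.6, 6.01 and 4.09 CPM on chow. Prdx4, a peroxidase of the endoplasmic reticulum, was at 11.2 ± 1.80 CPM on the high fat diet and 15.4 ± 2.62 CPM on chow (SD, n = 4 each; adjusted p = 0.753 by edgeR). These genes were chosen after their values were seen. Of the pathway genes outside the chaperones, Canx, Dnajc3, Ero1b, Derl3 and Syvn1 also held the ERSE letters in their promoters.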
